A study of Mus musculus with 11 samples.

Results

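Bile acid synthesis was followed through 10 genes: 8 enzymes (Cyp7a1, Cyp8b1, Cyp27a1, Cyp7b1, Hsd3b7, Akr1d1, Slc27a5 and Baat) and 2 nuclear receptors that control them (Nr1h4 and Nr0b2). They were taken by symbol from a table of 20893 genes in whole mouse liver. All 10 were found and all 10 passed the filter on low values (at least 0.5 eRPKM in at least 3 of the 11 libraries), as did 14244 genes in all. The values are eRPKM, exonic reads of a gene for each kilobase of its length, scaled to the total of the library, so that levels of different genes are compared per length.

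The 11 livers came from C57BL/6 mice of 3 groups, 1 library each, and all mice carried ROSA26-rtTA-IRES-EGFP and ate doxycycline food. The 4 control mice were WT for the YAP transgene and had doxycycline for 7 days. The other mice carried tetYAP and had doxycycline for 3 days (4 mice) or 7 days (3 mice). The study's methods describe a loxP-stop-loxP rtTA allele with Cre under the albumin promoter, which limits expression of the constitutively active YAP to cells of the hepatocyte lineage. There was no control group at 3 days, and mouse ages are not given in the sources used here.

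Bile acids are made from cholesterol in hepatocytes. The classical route starts with CYP7A1, the rate-limiting enzyme, which hydroxylates cholesterol at carbon 7, and the alternative route starts with CYP27A1 in mitochondria followed by CYP7B1. Both routes pass through HSD3B7 and AKR1D1, which reshape the steroid ring, and CYP8B1 sets the share of cholic acid. SLC27A5 activates bile acids with coenzyme A and BAAT joins them to taurine or glycine. Returning bile acids bind the receptor FXR (Nr1h4), which induces the repressor SHP (Nr0b2), and SHP lowers Cyp7a1 and Cyp8b1.

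On the mm9 assembly with GENCODE M1, the genes lie on 7 chromosomes. Cyp7a1 is at chr4:6192759-6202780 on the minus strand and Nr0b2 at chr4:133109291-133112451 on the plus strand, with Baat between them at chr4:49502294-49519429 (minus). Cyp27a1 is at chr1:74760148-74784464 (plus), Cyp7b1 at chr3:17971950-18143338 (minus) and Akr1d1 at chr6:37480173-37518815 (plus). Slc27a5 at chr7:13573695-13583541 (minus) and Hsd3b7 at chr7:134929122-134947316 (plus) share a chromosome, Cyp8b1 is at chr9:121823474-121825423 (minus) and Nr1h4 at chr10:88916979-88996330 (minus). Cyp8b1 has a single exon. Exons annotated to Hsd3b7 overlap exons of Setd1a, a histone methyltransferase gene that was itself at 2.62 to 10.2 eRPKM in the 11 livers. The other 9 share no exon bases with another gene.

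RefSeq promoter windows on GRCm38.p6 were given for 6 of the 10 genes and not for Cyp7a1, Cyp7b1, Slc27a5 and Baat. The 250 bases before the start were searched on both strands for GGAATG (the core bound by TEAD, the DNA-binding partner of YAP), CAAGGTC (NR5A2), CAAAGTC (HNF4A) and the inverted repeat AGGTCANTGACCT (FXR with RXR). No window held more than 1 match, so no matches overlapped. Among 32851 promoters of the same length, 12.6% held GGAATG, 3.32% CAAGGTC, 3.84% CAAAGTC and 0.00609% the inverted repeat. Hsd3b7 held GGAATG beginning 16 bases before the start and Cyp8b1 held CAAAGTC beginning 67 bases before the start, both on the gene's strand, and the windows of Cyp27a1, Akr1d1, Nr1h4 and Nr0b2 held none of the 4. The windows of the 2 matched enzymes and of Nr0b2 are given 5′ to 3′ on the strand of each gene, because these 3 genes had the lowest log2 fold changes at 7 days among the 6 with a window. Capitals mark the match, which is a description of letters and not of binding.
Hsd3b7, chr7:127800359-127800608, plus strand: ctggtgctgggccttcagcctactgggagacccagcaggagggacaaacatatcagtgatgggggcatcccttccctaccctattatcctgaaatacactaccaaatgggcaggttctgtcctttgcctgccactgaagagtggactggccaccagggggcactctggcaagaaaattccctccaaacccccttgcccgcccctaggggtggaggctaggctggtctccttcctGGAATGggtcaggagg
Cyp8b1, chr9:121916306-121916555, minus strand: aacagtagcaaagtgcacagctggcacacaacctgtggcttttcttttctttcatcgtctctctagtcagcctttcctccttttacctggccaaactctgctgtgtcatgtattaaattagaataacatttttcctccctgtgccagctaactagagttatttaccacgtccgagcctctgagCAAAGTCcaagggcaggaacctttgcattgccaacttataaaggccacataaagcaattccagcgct
Nr0b2, chr4:133553126-133553375, plus strand: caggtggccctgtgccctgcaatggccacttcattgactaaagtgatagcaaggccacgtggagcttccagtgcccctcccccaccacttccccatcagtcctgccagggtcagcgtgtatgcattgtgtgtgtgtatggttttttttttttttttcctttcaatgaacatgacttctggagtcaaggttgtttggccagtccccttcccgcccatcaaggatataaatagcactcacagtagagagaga

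Before the results, 3 properties of the libraries bear on these genes. Depth ran from 1251396 reads on genes (control liver 4) to 5941357 (7-day liver 2), and the 7-day livers (5312486 to 5941357) were all deeper than every control but control liver 2 (5495697). The highest read density of any gene was nearly the same in every library, 1281 to 1501 reads per kilobase, although depth differed 4.75 times, so the highest level reached 1024 eRPKM in the shallowest library and 245 in the deepest. How duplicate reads were counted is not given in the sources used here. If reads per position were limited, levels of the most abundant genes would be held down, more so in deep libraries, both between genes and between livers, and this was not tested. By Xist against the Y-linked gene Ddx3y, 2 controls and 2 of the 3-day livers were female, and all 3 of the 7-day livers were female. Yap1 was at 18.3 ± 3.10 eRPKM in controls and 18.4 ± 0.862 at 7 days (SD, log2 fold change 0.03 ± 0.17), and the sources used here do not say whether transgene reads count towards it. The YAP target Cyr61 lay between 5.76 and 14.4 eRPKM in controls, between 26.8 and 53.4 at 3 days and between 90.5 and 91.4 at 7 days, and rose by 3.27 ± 0.30 (log2, SE) at 7 days (limma, adjusted p = 8.01e-06). At 3 days Cyr61 was 1.99 ± 0.27 higher but missed the threshold (adjusted p = 0.0117).

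In control livers the 10 genes were among the most abundant transcripts. Their mean levels lay between the 82.7 and 99.5 percentile of the 14244 tested genes, in the order Slc27a5, Cyp27a1, Baat, Hsd3b7, Cyp8b1, Cyp7a1, Akr1d1, Cyp7b1, Nr1h4 and Nr0b2. Group means ran from 293 ± 113 eRPKM for Slc27a5 (SD, n = 4) to 33.6 ± 11.3 for Nr0b2. Cyp8b1, Cyp7a1, Akr1d1 and Cyp7b1, at 138, 127, 119 and 110 eRPKM, overlapped widely between livers and their order is not resolved. Nr0b2 was below Nr1h4 in each control liver.

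Expression after 3 days of YAP asked whether the pathway moved early. None of the 10 genes passed the test, limma on log2(eRPKM + 0.5) with thresholds of 0.01 on the p-value adjusted by Benjamini and Hochberg and of 0.5 on the size of the log2 fold change. Over all genes tested, 6 (0.0421%) were called higher and 0 (0%) lower, so few genes of any kind were called at this time. limma-voom on reads recovered from the table also called none of the 10 and called 1 gene higher and 0 lower over all genes. At an unadjusted p under 0.05 in limma there were 1718 of the 14244 tested genes and 1 of the 10 members, Akr1d1.

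Akr1d1, the reductase of the steroid ring, was at 106, 123, 131 and 117 eRPKM in controls 1 to 4 and at 148, 154, 168 and 143 at 3 days. Its 4 livers at 3 days all lay above all controls, which held for 3.38% of the tested genes and for no other member. The difference was 0.36 ± 0.12 on the log2 scale (SE, adjusted p = 0.26). The log2 differences of the other 9 genes lay between -0.34 (Hsd3b7) and 0.59 (Cyp8b1), and 4 of the 10 were below 0. For Cyp7a1 the difference was 0.20 with a 95% confidence interval from -0.40 to 0.79, and for Nr0b2 it was 0.05 with an interval from -0.64 to 0.73. Falls of the size seen at 7 days thus lay outside the intervals of both genes at 3 days.

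After 7 days of YAP, 7 of the 10 genes were lower than in controls and none was higher. The 7 were both first hydroxylases of the routes, Cyp7a1 and Cyp27a1, the second hydroxylase Cyp7b1, the ring enzyme Hsd3b7, the ligase Slc27a5 and both receptors. Over all genes tested, 822 (5.77%) were called lower and 2561 (18.0%) higher. Under quantile normalization the split over all genes was 1786 lower and 1867 higher. All 3 livers at 7 days lay below all 4 controls for the same 7 genes, against 13.3% of the tested genes. The median log2 fold change was -1.12 over the 10 genes and 0.26 over all tested genes. These are shares of reads in whole tissue, in which fewer cells of a type and less RNA per cell cannot be told apart.

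**Figure D1:**
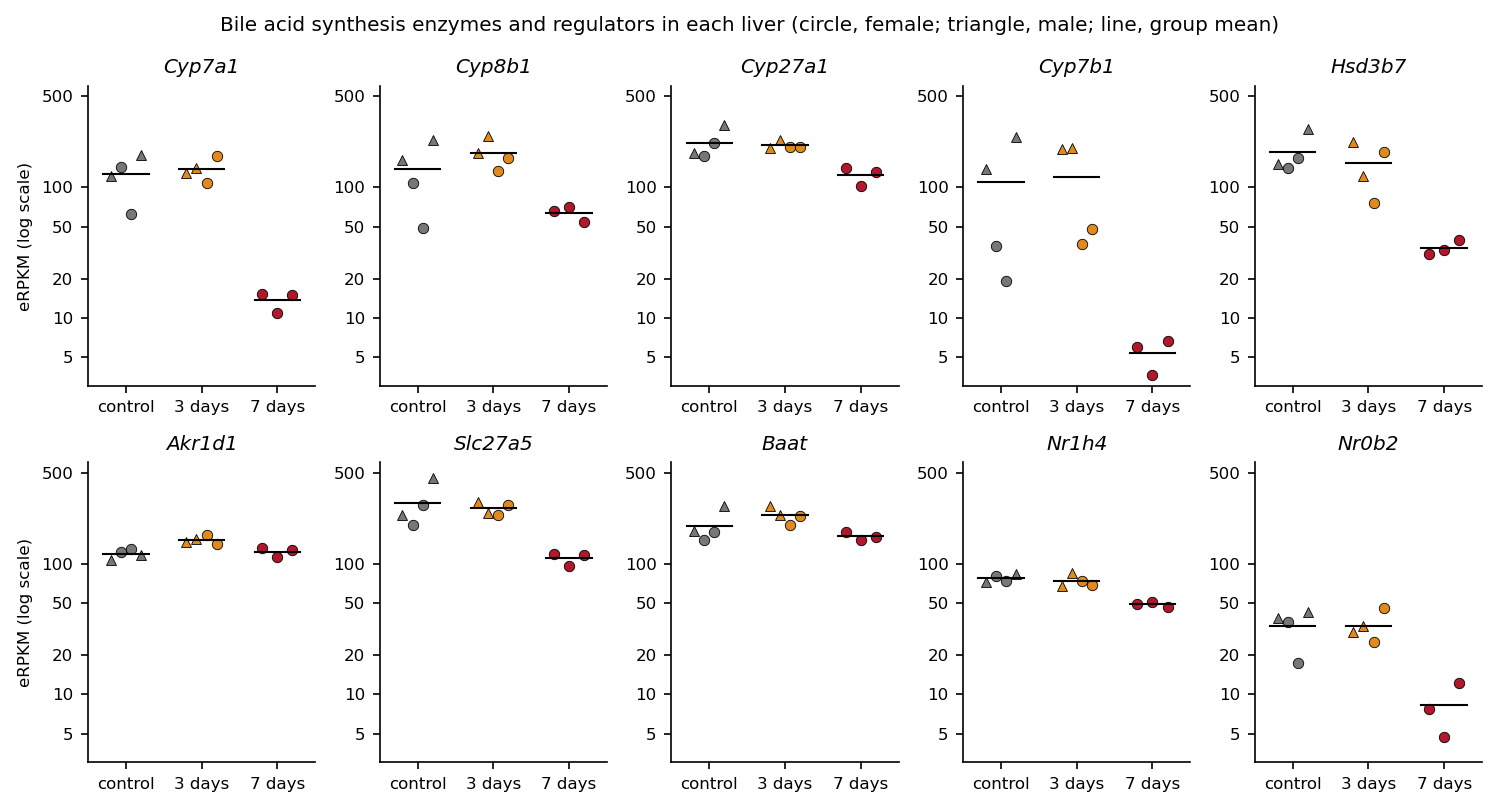
Level of each of the 10 genes in each liver, in eRPKM on a log scale, with circles for female livers, triangles for male livers and a line at the group mean. The 3 livers at 7 days lie below all controls for Cyp7a1, Cyp27a1, Cyp7b1, Hsd3b7, Slc27a5, Nr1h4 and Nr0b2, and overlap the controls for Cyp8b1, Akr1d1 and Baat.

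Cyp7a1, the entry enzyme of the classical route, was at 123, 145, 62.5 and 179 eRPKM in the controls and at 128, 142, 109 and 174 at 3 days. At 7 days it was at 15.2, 10.9 and 14.98. The highest of these was less than the lowest control, and the 7-day mean was 10.8% of the control mean. The log2 fold change was -3.09 ± 0.30 (SE, limma, adjusted p = 1.2e-05), or 8.49-fold lower. Cyp7a1 went from the 96.7 percentile of tested genes to the 54.4 percentile.

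Cyp7b1, the hydroxylase of the alternative route, also fell, from levels that varied widely in the other groups. It was at 139, 35.4, 19.2 and 245 eRPKM in the controls and at 197, 199.9, 36.9 and 47.6 at 3 days, so that livers of each group formed a high and a low pair. At 7 days it was at 5.94, 3.62 and 6.58, with 48 to 78 reads per library. The log2 fold change was -3.62 ± 0.81 (adjusted p = 0.00373). The high pair was male and the low pair female in both groups, and female livers were 2.52 ± 0.25 lower on the log2 scale in a fit with group and sex (adjusted p = 0.000141). Cyp7b1 was the only member called by sex, where 92 genes (0.646%) were called in either direction. In female livers alone, Cyp7b1 differed at 7 days by -2.21 ± 0.32 on the log2 scale (adjusted p = 0.00132), and by -2.89 ± 0.32 from the 3-day livers (adjusted p = 0.000536). Cyp7a1 differed from female controls by -2.77 ± 0.35. The order of both hydroxylases by size of change thus differed between the fits, but that order was not tested and no 7-day liver was male. With log2 depth as a covariate the log2 fold change of Cyp7b1 was -2.64 with an adjusted p of 0.078.

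Cyp27a1, the mitochondrial entry enzyme of the alternative route, had a smaller log2 fold change. Controls were at 184, 173, 219 and 299.6 eRPKM, 3-day livers at 200.0, 230.2, 206 and 203, and 7-day livers at 140.0, 103 and 132. The log2 fold change of -0.79 ± 0.19 passed narrowly (adjusted p = 0.00685). The call was lost under 17 of 29 other settings, and with log2 depth as a covariate the log2 fold change was -0.44 (adjusted p = 0.049). The control levels of Cyp27a1, Hsd3b7 and Slc27a5 ran in the reverse order of library depth.

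Cyp8b1, the 12-hydroxylase, was at 163, 107, 48.8 and 232 eRPKM in the controls, 183, 249.5, 134 and 168 at 3 days and 66.0, 70.4 and 54.3 at 7 days. Control liver 3 lay below all 7-day livers, and the log2 fold change of -0.90 ± 0.40 did not pass (adjusted p = 0.095, 95% confidence interval -1.78 to -0.03). Without control liver 3 it was -1.33 ± 0.28 and passed (adjusted p = 0.0038). In female livers alone it was -0.20 (adjusted p = 0.67), and female livers were 0.96 ± 0.26 lower than male livers without passing the test (adjusted p = 0.14).

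Hsd3b7, the dehydrogenase that follows the 7-hydroxylases on both routes, was at 152, 140.3, 169 and 282 eRPKM in the controls and 225, 123, 76.5 and 189 at 3 days. At 7 days it was at 30.7, 32.8 and 39.7. The log2 fold change was -2.37 ± 0.33 (adjusted p = 0.000153), or 5.17-fold lower, and the gene was called lower under all 29 other settings, as was Cyp7a1. Setd1a, whose exons overlap, was at 6.63 to 10.2 eRPKM in the 7-day livers and 3.92 to 6.39 in the controls.

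Akr1d1, the next enzyme on the same route, was not called. Its 7-day livers were at 132, 114 and 127 eRPKM against 106 to 131 in the controls, a log2 fold change of 0.06 with a 95% confidence interval from -0.23 to 0.35. The interval holds no change of the size measured for Hsd3b7. The sign depended on scaling, with -0.21 under median-ratio size factors and 0.51 under quantile normalization, where the median of all genes was 0.03 and -0.06. Among the 11 livers the Pearson r of Akr1d1 with the other 9 genes lay between 0.06 and 0.41, while the 36 pairs among those 9 lay between 0.49 and 0.96. These values are a description over livers that share the 3 groups and the differences in depth.

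The conjugation enzymes differed from each other. Slc27a5 was at 237, 198, 284 and 453 eRPKM in controls, 298, 246, 239 and 285 at 3 days and 119, 97.2 and 118 at 7 days. Its log2 fold change was -1.33 ± 0.24 (adjusted p = 0.000917), and -0.79 with log2 depth as a covariate (adjusted p = 0.000892). Baat was at 179, 152, 177 and 279.5 eRPKM in controls, 279, 239, 199 and 233 at 3 days and 176, 152 and 162 at 7 days. The 7-day livers of Baat lay within the range of the controls (log2 fold change -0.23, interval -0.67 to 0.21, adjusted p = 0.39). The sign of Baat turned under quantile normalization (0.42) and with log2 depth as a covariate (0.16).

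Both receptors fell, and the log2 fold change of the repressor was larger in size than that of its inducer, a difference that was not tested. Nr0b2 was at 38.3, 35.7, 17.3 and 43.0 eRPKM in the controls, 29.96, 33.3, 25.2 and 46.2 at 3 days and 7.78, 4.67 and 12.3 at 7 days. The log2 fold change was -1.98 ± 0.34 (adjusted p = 0.000711), on 32 to 75 reads per 7-day library. Nr1h4 was at 73.0, 80.8, 74.0 and 84.1 eRPKM in the controls, 67.3, 84.7, 73.5 and 69.0 at 3 days and 49.6, 50.7 and 46.6 at 7 days. Its log2 fold change was -0.67 ± 0.13 (adjusted p = 0.00161), the smallest of the 7, with tight groups. The ratio of Nr0b2 to Nr1h4 lay between 0.234 and 0.524 in controls, between 0.344 and 0.67 at 3 days and between 0.0922 and 0.263 at 7 days. The repressor gene and its target Cyp7a1 were low in the same livers: their Pearson r over the 11 livers was 0.96, as a description. In female livers alone the log2 fold changes were -1.63 for Nr0b2 (adjusted p = 0.0225) and -0.66 for Nr1h4 (adjusted p = 0.0112), neither passing the threshold of 0.01.

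**Figure D2:**
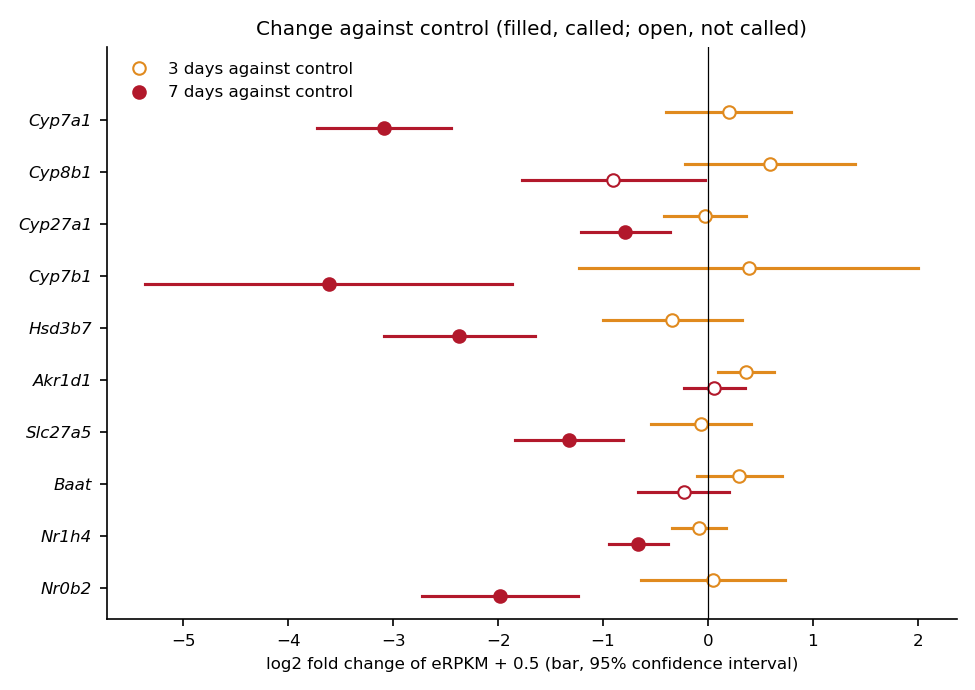
Log2 fold change against control of each gene at 3 days (orange) and 7 days (red), with 95% confidence intervals from limma as bars. Filled points were called. No gene was called at 3 days, and at 7 days the values were lowest for Cyp7b1 (-3.62) and Cyp7a1 (-3.09). In female livers alone they were -2.21 and -2.77, and the order of both genes was not tested.

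The step from 3 to 7 days was tested directly. The same 7 genes were called lower at 7 days than at 3 days and none was higher, against 756 genes (5.31%) lower and 1997 (14.0%) higher over all tested. All 10 had their 7-day livers below every 3-day liver, which held for 13.8% of the tested genes. The log2 difference was -3.29 ± 0.30 for Cyp7a1 (adjusted p = 1.14e-05), -4.00 ± 0.81 for Cyp7b1 (adjusted p = 0.00253), -2.03 ± 0.33 for Hsd3b7 (adjusted p = 0.000599) and -2.03 ± 0.34 for Nr0b2 (adjusted p = 0.000776). Cyp27a1 again passed narrowly (-0.76 ± 0.19, adjusted p = 0.00998). Cyp8b1 differed by -1.49 ± 0.40 and missed the threshold (adjusted p = 0.0128), passing in 7 of 29 other settings. Akr1d1 and Baat differed by -0.30 ± 0.13 (adjusted p = 0.096) and -0.53 ± 0.20 (adjusted p = 0.056). The comparisons at 3 and 7 days share their control livers, so their values are given side by side only.

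The order of levels among the 10 genes at 7 days was Baat, Cyp27a1, Akr1d1, Slc27a5, Cyp8b1, Nr1h4, Hsd3b7, Cyp7a1, Nr0b2 and Cyp7b1. Baat stood above Cyp27a1 in each 7-day liver, while Cyp27a1 and Akr1d1, at 125 and 124 eRPKM, were not separated. The entry enzyme of the classical route was lower relative to that of the alternative route. The ratio of Cyp7a1 to Cyp27a1 lay between 0.285 and 0.837 in controls, between 0.53 and 0.855 at 3 days and between 0.106 and 0.114 at 7 days, with no overlap of the 7-day livers. The ratio of Cyp7a1 to Cyp7b1 lay between 0.73 and 4.09 in controls, between 0.651 and 3.65 at 3 days and between 2.28 and 3.02 at 7 days. Its range in controls and at 3 days followed sex, with male livers at 0.651 to 0.881 and female livers at 2.95 to 4.09. The 7-day livers, all female, lay below both female controls (3.26 and 4.09) but overlapped the female 3-day livers (2.95 and 3.65).

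Library depth moved with these values. The mean read density was 343 to 792 reads per kilobase for 7 of the 10 genes, and 868 tested genes lay between 300 and 1000. Those 868 genes had a median log2 fold change of -0.48 at 7 days against control and 28.0% of them were called lower, against a median of 0.26 over all tested genes. Of the 7 members of that density, Cyp7a1, Cyp27a1, Hsd3b7 and Slc27a5 were called lower and Cyp8b1, Akr1d1 and Baat were not. Cyp7b1 and Nr1h4 lay between 100 and 300 reads per kilobase, where 12.5% were called lower, and Nr0b2 between 30 and 100, where 3.02% were. Across the 4 controls, the change of the log2 level for each doubling of depth was -0.84 for Cyp7b1, whose controls also differed by sex, -0.55 for Slc27a5, -0.46 for Hsd3b7, -0.38 for Baat and Cyp27a1 and -0.30 for Cyp8b1. It was -0.07 for Cyp7a1, -0.04 for Nr1h4 and -0.01 for Akr1d1 and Nr0b2. The median was -0.27 over genes with at least 300 reads per kilobase and 0.19 over all tested genes. A fit with log2 depth as a covariate was also run. It cannot separate depth from group, because only control liver 2 was as deep as the 7-day livers. In this fit Cyp7a1 (-3.02), Hsd3b7 (-1.84), Slc27a5 (-0.79) and Nr1h4 (-0.65) were called lower at 7 days. Not called in it were Cyp7b1 (-2.64 ± 0.98), Cyp27a1 (-0.44 ± 0.14) and Nr0b2 (-1.96 ± 0.46, limma, adjusted p = 0.0113). Without depth in the fit Nr0b2 was at -1.98 ± 0.34, so its estimate hardly moved and its SE grew.

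**Figure D3:**
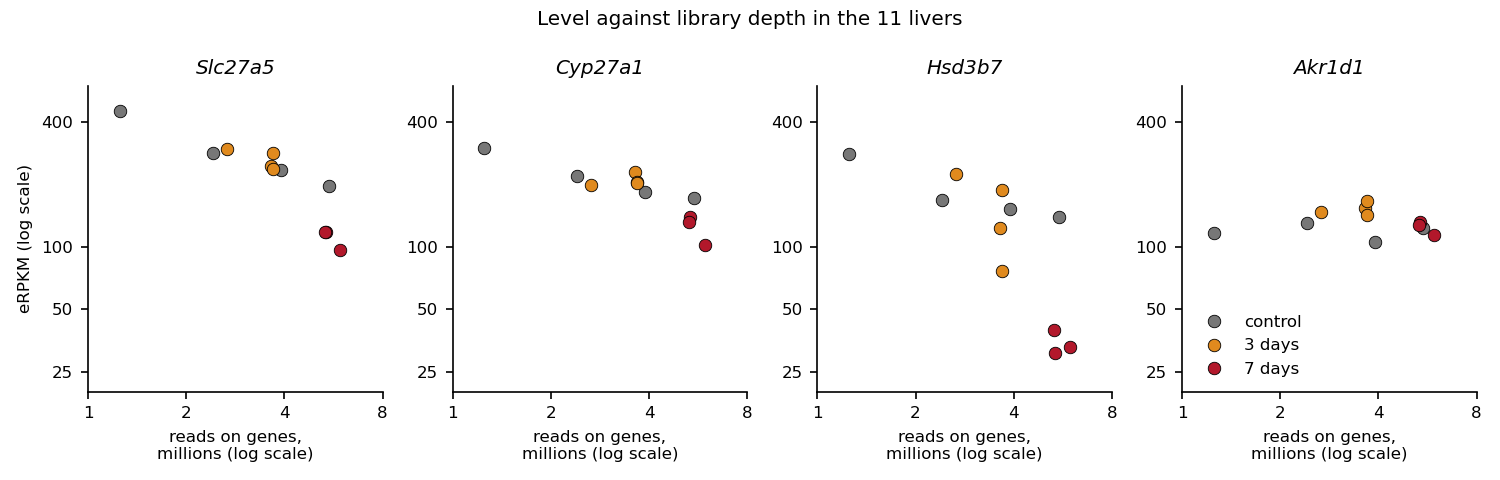
Level of Slc27a5, Cyp27a1, Hsd3b7 and Akr1d1 against library depth in the 11 livers, both on log scales. Among the 4 controls Slc27a5, Cyp27a1 and Hsd3b7 are lower in deeper libraries, and the 7-day livers lie below control liver 2, of like depth, for these genes but not for Akr1d1.

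Control liver 2 was female and as deep as the 7-day livers, which are female too, so it was set beside them after its values had been seen, as 1 liver without a test. It had 9.55 to 13.3 times the Cyp7a1 level of the 7-day livers, 5.38 to 9.8 times that of Cyp7b1 and 3.53 to 4.58 times that of Hsd3b7. For Nr0b2 the ratio was 2.91 to 7.64, for Slc27a5 1.67 to 2.03, for Nr1h4 1.59 to 1.74, for Cyp8b1 1.52 to 1.98 and for Cyp27a1 1.24 to 1.68. For Akr1d1 it was 0.934 to 1.08 and for Baat 0.861 to 0.999.

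The other enzymes of the pathway were counted from a list of 12, of which 4 were called lower at 7 days and none higher, against 5.77% of all tested genes lower. The median log2 fold change was -0.36 against 0.26 over all tested genes. Of the 12, 7 lay between 300 and 1000 reads per kilobase and 3 of those 7 were called lower, beside 28.0% of all genes of that density. Amacr, the racemase of the bile acid side chain, was at 62.5 to 101 eRPKM in controls, between 44.7 and 72.3 at 3 days and between 25.7 and 26.6 at 7 days, a log2 fold change of -1.49 ± 0.19 (adjusted p = 8.92e-05). Scp2, a thiolase of peroxisomal side chain shortening, had a log2 fold change of -1.27 ± 0.32 (adjusted p = 0.00824), and its call was lost under 19 of 29 other settings. The ligase Slc27a2 (-1.08 ± 0.21) and the peroxisomal importer Abcd3 (-0.84 ± 0.16) were also called. Each lost its call under 3 of 29 other settings, among them female livers alone (limma, adjusted p = 0.014 for both). Both enzymes of taurine synthesis, which supplies the partner for conjugation, were called lower, Csad with a log2 fold change of -2.89 ± 0.65 (adjusted p = 0.00377) and Cdo1 with -1.21 ± 0.27 (adjusted p = 0.0037). Of these, 1 lay between 100 and 300 reads per kilobase and 1 between 300 and 1000, where 12.5% and 28.0% of all genes were called lower. Cdo1 lost its call under 7 of 29 other settings, among them female livers alone (-1.05, limma, adjusted p = 0.0142). Csad lay between 43.2 and 147 eRPKM in controls, between 11.3 and 128 at 3 days and between 9.79 and 13.0 at 7 days, so 1 of the 3-day livers was already within the range of the 7-day livers, and it was not called at 7 against 3 days (-2.13 ± 0.65, adjusted p = 0.0224). Its control means were 59.7 eRPKM in female and 140 in male livers, and in female livers alone the 7-day difference of Csad was -2.25 without passing (adjusted p = 0.0303). Its call was lost under 9 of 29 other settings. None of the 3 electron donors Por, Fdx1 and Fdxr was called, with a median of 0.10.

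Of 14 other regulators, 13 were tested, 3 were called lower and none higher, against 5.77% of all tested genes lower, with a median of -0.01 against 0.26. All 3 were among the 8 regulators at 100 to 300 reads per kilobase, where 12.5% of all genes were called lower. These were Nr1i3, the receptor CAR (14.9 ± 2.74 eRPKM at 7 days against 56.8 ± 18.9 in controls, log2 fold change -1.84 ± 0.28), Nr5a2, the receptor LRH-1 that activates Cyp7a1 (-0.77 ± 0.17, adjusted p = 0.00301), and Klb, the coreceptor for the intestinal hormone FGF15 (-0.95 ± 0.24, adjusted p = 0.00712). Fgf15 itself was listed at 0 in all control and 3-day livers and was not tested. The call of Klb was lost under 9 of 29 other settings, that of Nr5a2 under 4 and that of Nr1i3 under 1. Hnf4a, an activator of Cyp7a1 and Cyp8b1, was at 135 to 181 eRPKM in controls and 116 to 129 at 7 days, and its log2 fold change of -0.35 ± 0.14 did not pass (adjusted p = 0.066).

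Of 4 export genes that FXR activates, 1 was called lower, against 5.77% of all tested genes. It was Abcb11, the bile salt export pump: between 141 and 189 eRPKM in controls, 119.5 and 161 at 3 days, and 39.3 and 61.7 at 7 days (log2 fold change -1.73 ± 0.19, limma, adjusted p = 2.55e-05). Abcb11 lay between 300 and 1000 reads per kilobase, where 28.0% of all genes were called lower. Slc51b, a subunit of the exporter to blood, was at 0.51 to 3.30 eRPKM in controls and 3.34 to 9.73 at 7 days without passing (1.51 ± 0.53, limma, adjusted p = 0.0397). These levels rest on 1 to 6 reads per control library and 10 to 26 per 7-day library. The other 2, Abcb4 and Slc51a, were not called. Among 11 clock genes, counted because Cyp7a1 follows the time of day, 10 were tested and 2 were called lower at 7 days, Nr1d1 (-1.34 ± 0.30) and Nr1d2 (-0.77 ± 0.13), and none was higher, against 5.77% of all tested genes lower and 18.0% higher. Nr1d1 was already at 18.3 ± 2.12 eRPKM at 3 days against 39.9 ± 9.63 in controls (log2 fold change -1.08 ± 0.28, adjusted p = 0.12). Its call at 7 days was lost under 7 of 29 other settings, among them female livers alone (-1.56, limma, adjusted p = 0.0116). For 5 of the 10 clock genes, chosen after their values were seen, all 3 of the 7-day livers lay above all controls without a call, which held for 36.7% of all tested genes. Their log2 fold changes were 1.21 for Per1, 0.97 for Per2, 0.88 for Cry1, 0.84 for Arntl (5 to 18 reads per control library) and 0.30 for Tef. For 2 of the 10, Nr1d2 and Ciart, all 7-day livers lay below all controls, against 13.3% of all tested genes. Ciart was at 14.6 to 28.8 eRPKM in controls and 4.20 to 8.24 at 7 days without passing (-1.68 ± 0.58, limma, adjusted p = 0.038). The time of day of dissection is not given in the sources used here, and its part in the values was not tested.

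**Figure D4:**
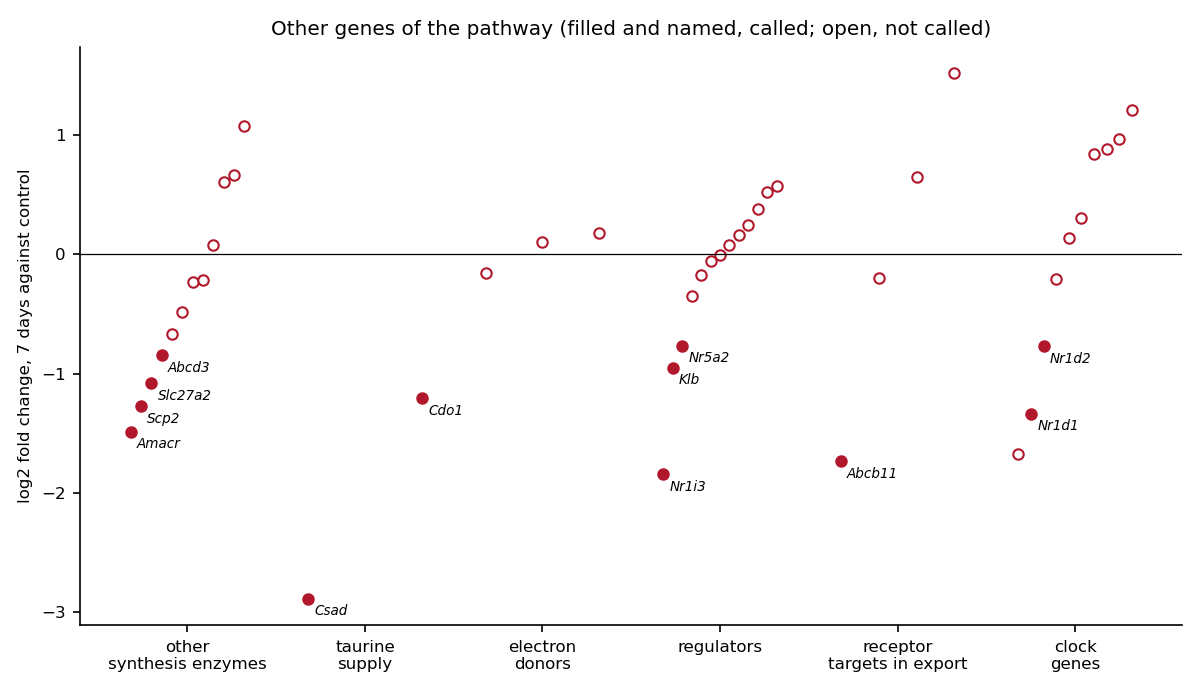
Log2 fold change at 7 days against control of the tested genes of 6 lists around the pathway. Filled, named points were called, all of them lower, with Csad (-2.89) the lowest and no gene called higher.

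Some markers of liver cell types differed at 7 days too, where 18.0% of all tested genes were called higher and 5.77% lower. The summed level of 8 hepatocyte markers ran from 1763 to 5590 eRPKM in controls, from 2236 to 2881 at 3 days and from 1397 to 1587 at 7 days, with Ttr and Apoa2 called lower and none of the 8 at 0. Over the controls Alb had 2417 to 3102 reads, Fgb 1737 to 2214 and Apoa1 1078 to 1423, although depth ran from 1251396 to 5495697. The eRPKM of these markers thus varied with depth, and the part of depth in the sums was not tested. The summed level of 6 macrophage markers was 198 to 407 eRPKM in controls and 740.0 to 796 at 7 days, with 4 of the 6 called higher. That of 7 cholangiocyte markers was 42.9 to 53.4 and 67.8 to 123, with 1 of the 6 tested called higher. Of the endothelial markers 2 of 6 were called higher and of the stellate markers 1 of 5 lower. No T and B cell marker was called, and both proliferation markers, Mki67 and Top2a, were higher. With each liver scaled to its hepatocyte markers the median of all genes at 7 days moved from 0.26 to 1.12 on the log2 scale. On that scale Cyp7a1 (-2.13), Cyp7b1 (-2.68) and Hsd3b7 (-1.40) were still called lower, Nr0b2 (-1.04) and Slc27a5 (-0.35) were not called, and Nr1h4 (0.31), Cyp27a1 (0.19) and Cyp8b1 (0.072) turned in sign without being called. Akr1d1 (1.04) and Baat (0.75) were called higher on it, Baat with a turned sign and both below the median of all genes. Because levels of the hepatocyte markers also varied with depth, scaling to them cannot tell hepatocyte content from depth.

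**Figure D5:**
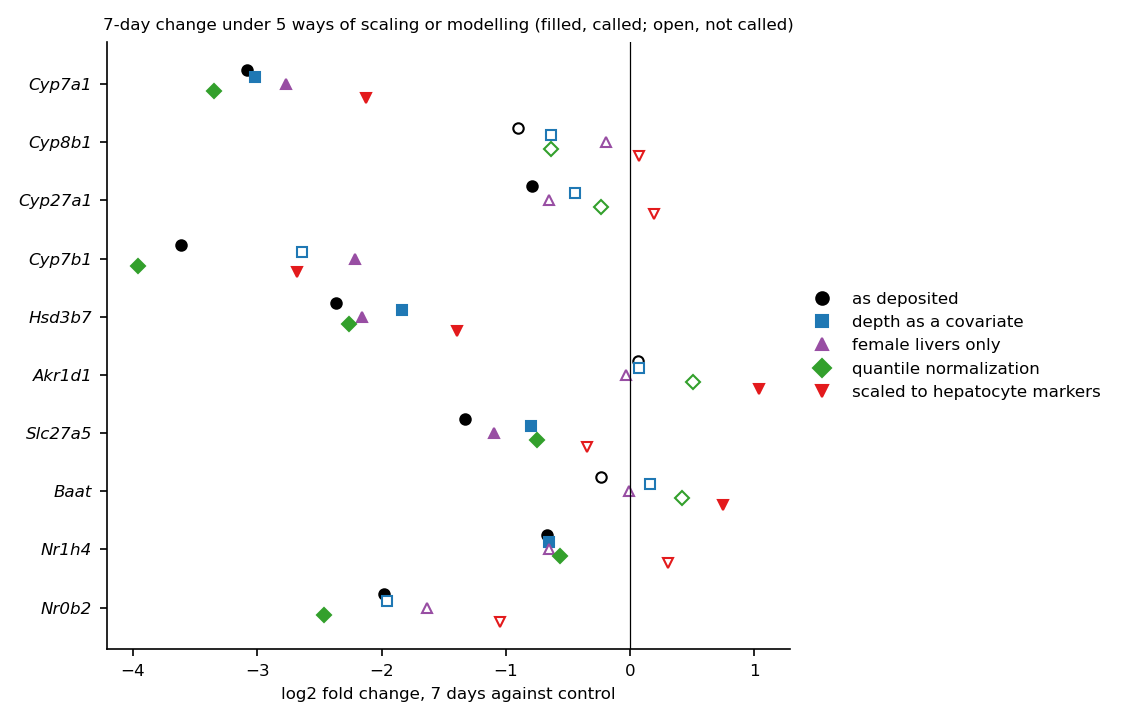
Log2 fold change at 7 days against control of the 10 genes in the fit to the deposited scale and in 4 alternatives. Filled points were called. Cyp7a1 and Hsd3b7 were called lower in all 5, while Cyp27a1 ran from -0.79 to 0.19 and Nr1h4 from -0.67 to 0.31.

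The genes most like 3 of the members over the 11 livers were listed by Pearson r of log2 levels, as a description of livers that share groups and depth. For Cyp7a1 they were Tlcd2 (0.972), Gcgr, the glucagon receptor (0.972), and Aspdh (0.97). Gcgr had means of 84.2 eRPKM in controls, 83.6 at 3 days and 27.1 at 7 days. For Nr0b2 they were Cyp7a1 (0.964), Coasy (0.952) and Mst1 (0.947), and for Nr1h4 they were Fggy (0.976), Pbld1 (0.966) and Upp2 (0.96). Upp2, a uridine phosphorylase, had means of 160 eRPKM in controls, 107 at 3 days and 8.01 at 7 days.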

How the data were processed

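Total RNA of 11 whole livers had been made into TruSeq v2 libraries. Per the labels and the study's methods, the authors used TopHat 2.0.8 as aligner on mm9, treated libraries as unstranded, and used featureCounts 1.4.5-p1 as counter. The annotation and the handling of duplicate reads are not given in the sources used here. The deposited values are eRPKM, a kind of RPKM scaled by the authors to each library's reads. Columns of the authors' own DESeq2 comparison of 7 days with control (mean signal, log2 fold change, adjusted p-value) are deposited beside them and were not used.

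All 177553 values above 0 were within 0.1 of a whole number of reads once the step of each gene was found, and these reads (1251396 to 5941357 per library) gave depth. eRPKM are normalized, so limma 3.58.1 (R 4.3.3; eBayes with trend) was run on log2(eRPKM + 0.5) over 14244 genes and all 11 livers in 1 fit, instead of a count test. It was tested on simulated data. Group comes from the labels. Sex was read from Xist and Ddx3y. The labels of 3-day livers 1 and 4 and of 7-day liver 2 carry a suffix MF whose meaning is not given. With this suffix as a covariate, Cyp27a1 lost its call at 7 days against control (log2 fold change -0.71, limma, adjusted p = 0.0133). The sources used here do not say whether livers were processed apart, and p-values measure the spread between these livers. The log2 scale with a pseudocount understates changes of low genes.

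The 10 genes, the lists, the motifs and the tests were chosen with earlier results of these data known. Named genes were the members, the called genes of each list with the largest changes (at most 4), genes whose role bears on a member, and the 3 genes most like Cyp7a1, Nr0b2 and Nr1h4. Python 3.11.15, pandas 2.3.3 and numpy 2.4.6 were used. Alternatives changed the pseudocount (1 or 0.1), filter, scaling, covariates, variance model, threshold and livers used; the fit with the 2 deepest controls only was added after the data were seen.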

Additional observations from a re-analysis of the deposited data

Results flagged for a closer look

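The change against control at 7 days differed from that at 3 days for 7 of the 10 genes, tested as the contrast of 7 against 3 days in limma at an adjusted p under 0.01. The log2 difference was -3.29 for Cyp7a1, -4.00 for Cyp7b1, -2.03 for Hsd3b7, -2.03 for Nr0b2, -1.26 for Slc27a5, -0.76 for Cyp27a1 and -0.58 for Nr1h4. Over all tested genes, 756 (5.31%) were called lower in this contrast. All 3 livers at 7 days lay below all 4 livers at 3 days for all 10 members, called or not, which held for 13.8% of the tested genes. The 3-day group held 2 female and 2 male livers and the 7-day group 3 female livers. In female livers alone 4 members were called lower, beside 401 of the 14244 tested genes. In the 20 groups of 4 livers, 10 genes in controls and at 3 days, no liver lay far enough from the others to stand out, where chance alone gives about 1 in 20.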

How the results depend on the processing

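No member was called at 3 days in any of the 29 other fits. At 7 days against control, 7 members were called lower; this count was 3 after scaling to hepatocyte markers (with 2 called higher), 4 with log2 depth as a covariate, 4 in female livers only and 4 to 7 when each liver was left out. At 7 against 3 days it was 7, with 4 after scaling to hepatocyte markers, 4 in female livers only, and 3 to 8 when each liver was left out, the lowest without 7-day liver 2; against control the lowest was without 7-day liver 3. Cyp7a1 and Hsd3b7 were called lower in all 29 fits of both comparisons. Cyp7b1 lost its call against control with robust eBayes (adjusted p = 0.0168), with log2 depth, without control livers 1 or 4 and without each 7-day liver (adjusted p = 0.0205 at most). Nr1h4 lost it without 7-day liver 3 (adjusted p = 0.0126), and Slc27a5 lost its call against 3 days without 7-day liver 2 (adjusted p = 0.0123). After scaling to hepatocyte markers the sign turned, among genes called on the deposited scale, at 7 days against control for Nr1h4 (0.31), Cyp27a1 (0.19), Abcd3 (0.13), Nr5a2 (0.20), Klb (0.011) and Nr1d2 (0.20), and at 7 against 3 days for Nr1h4 (0.10) and Nr1d2 (0.00052). Among the members not called it turned for Cyp8b1 (0.072) and Baat (0.75) against control and for Akr1d1 (0.39) and Baat (0.16) against 3 days. With 2 deepest controls only, added after the data were seen, 6 members were called lower. The causes were not tested, and scaling to hepatocyte markers cannot tell hepatocyte content from library depth here.

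The replicate numbers of the labels did not pair livers: 2 of 10 same-numbered pairs correlated over 0.1 (range -0.22 to 0.27). With the replicate number as a replicate block, Cyp27a1 lost its call at 7 days against control (-0.71, adjusted p = 0.0222) and Cyp27a1 and Nr1h4 lost theirs at 7 against 3 days (-0.68 and -0.58).

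Over all genes, 2561 were called higher and 822 lower at 7 days against control, and 1997 and 756 at 7 against 3 days. These became 1099 and 577, and 1091 and 588, with log2 depth, 1523 and 605, and 1023 and 401, in female livers, 1406 and 579 against the 2 deepest controls, 4491 and 142, and 2588 and 137, after scaling to hepatocyte markers, 1867 and 1786, and 1417 and 1409, under quantile normalization, and 1951 and 1254, and 1516 and 1181, under median-ratio size factors. A threshold of 0.05 on the adjusted p, whatever the fold change, gave 3969 and 1421, and 3621 and 1464. Leaving out each liver gave 1588 to 2770 higher and 469 to 914 lower against control, and 1048 to 2619 higher and 364 to 1064 lower against 3 days. At 3 days against control, 6 genes were called higher, with 0 to 53 over all other fits. limma-voom on the recovered reads called 2800 higher and 949 lower. Depth limits Nr0b2 and Cyp7b1 at 7 days, with 32 to 78 reads per library, and intervals cover the spread between these livers only.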
